A study of Rattus norvegicus with 32 samples.

Results

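The genes described are those of the proteasome and of ubiquitin conjugation, followed in normal mammary gland across rat strains. They were taken as the probe sets with a single gene symbol that starts with Psma, Psmb, Psmc, Psmd, Psme, Ube2, Uba or Uch, or is Nae1. Psmb8 and Psmb9 were left out, and each probe set of a gene, such as the 3 of Psmb4, was kept apart. The rule gave 67 probe sets of 40 genes, of 8799 probe sets on the array. A further 6 probe sets that list a Psm or Ube2 gene beside other genes were no members. Total RNA of each sample was hybridised to its own Affymetrix rat array. There were 6 groups with 5 single-sample arrays each, 30 in all. One group was the F1 cross between Cop and F344, and the inbred groups were Cop, F344, ACI, BUF/N and WF. No transgene, treatment, age, sex or oestrous stage is given in the labels, and a Cop pool and an F344 pool had 1 array each. As background, Cop rats and their hybrids are known for resistance to mammary carcinogens, to which the strains F344, BUF/N and WF are prone.

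The proteasome is the protease that degrades proteins tagged with ubiquitin. Its 20S core is a barrel of outer alpha rings, built from Psma subunits, and inner beta rings, built from Psmb subunits, some of which carry the active sites. The 19S cap opens the core and feeds it. Its ATPases (Psmc) unfold the substrate, and its other subunits (Psmd) bind ubiquitin or hold the cap together, while the Psme activators can take the place of the cap. Ubiquitin is passed from an E1 enzyme to an E2 enzyme (Ube2) and then, with an E3 ligase, to the substrate. Nae1 belongs to the parallel E1 of the ubiquitin-like protein NEDD8, and the Uch enzymes free ubiquitin from short chains and adducts. In mammals the transcription factor Nfe2l1 is known to raise many proteasome genes together through antioxidant response elements in their promoters.

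Values are linear signals that the authors computed per probe set. Before log2 was taken, any signal under 18.3 (the 25th percentile over the whole table) was raised to 18.3, the floor. Testing required a signal over the overall median of 78.4 on 5 or more of the 30 arrays. This held for 5039 probe sets, among them 55 of the members (35 genes), and the text counts members among these 55. Changes are differences of mean log2 signal from limma, with their standard error (SE), and a probe set passed when its p, adjusted by the Benjamini-Hochberg method over all 5039, was under 0.05. The 12 members not tested were dim. All 3 probe sets of Uchl1, a hydrolase known from neurons, were among them, with signals of 1.6 to 95.3, as were Psmd10, an assembly chaperone of the cap, Ube2d2b, Ube2e3 and Ube2m, the E2 enzyme of NEDD8. The other 5 were second probe sets of Psma1, Psma5, Psma6, Psmd1 and Psme1. Signals of different probe sets are on no common scale, so no probe set's level is set against another's.

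Whether each sample is a different animal is not given by the labels, and the p-values therefore reflect only sample-to-sample spread, which may be technical. Within groups, 4 arrays stood apart, F1 2 and F1 3 from the other F1 arrays and ACI 2 and ACI 5 from the other ACI arrays. The lowest correlation between any arrays of a group was 0.846, that of F1 2 with F1 5. ACI 2 and ACI 5 had the highest median signals (102.1 and 101.8, against 65.8 to 86.8 on the other 28 arrays). Results that rest on these arrays are also given without them. The tissue was checked by marker lists. All 10 luminal epithelial marker genes on the array were tested, as were all 7 milk protein genes, and 14 of 15 adipocyte genes. None of these had a probe set at the floor on every array. The summed luminal signal was 13648 to 17058 in F1, 6108 to 10170 in Cop, 8802 to 12211 in F344, 7894 to 11865 in ACI, 15768 to 20621 in BUF/N and 14954 to 20935 in WF. The summed adipocyte signal was 34419 to 42843 in F1, 40833 to 51484 in Cop, 39977 to 44125 in F344, 36573 to 41669 in ACI, 25316 to 33690 in BUF/N and 30223 to 40224 in WF. Luminal signal was thus higher in every F1 array than in every Cop and F344 array, and every BUF/N array had less adipocyte signal than every F1, Cop, F344 and ACI array. The summed milk protein signal was 18001 to 41635 in F1, 4898 to 11663 in Cop, 7247 to 10719 in F344, 12232 to 22900.0 in ACI, 12734 to 30161 in BUF/N and 9464 to 25146 in WF, so that every F1 array exceeded every Cop and F344 array. The summed skeletal muscle signal (15 of 18 genes on the array tested, with Myh7 at the floor on every array) was 758.1 to 3994 in F1, 1310.0 to 23714 in Cop, 5681 to 27000.2 in F344, 2774 to 13587 in ACI, 1330 to 7399 in BUF/N and 1252 to 9881 in WF. The part of the cell makeup in the results below was not tested. In whole tissue, fewer cells of a type and less RNA per cell cannot be told apart.

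Over the 6 groups, 21 of the 55 members differed in limma's F test (38.2%), against a background of 51.8% of all tested probe sets. The range of the group means had a median of 0.55 on the log2 scale over the members and 0.74 over all tested probe sets. It exceeded 1, a 2-fold difference, in 11 of the 55 members and in 1438 of the 5039 tested probe sets. By role, the test passed for 4 of 10 probe sets of alpha subunits, 4 of 11 of beta subunits, 2 of 6 of cap ATPases, 4 of 9 of other cap subunits, 5 of 11 of E2 enzymes, 1 of 4 of activators and 1 of the 4 of Nae1, Ubac2 and Ubald1. The members' share lay below the background. Their smallest adjusted p values were those of Psmb4 (rc_AI172162_at, 1.79e-07), Nae1 (U90829_g_at, 3.97e-07) and Psmb4 (L17127_at, 9.24e-05).

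The 8 comparisons differed in how many members passed. F1 against the mean of its parents gave most, with 6 members higher and 14 lower, where 17.4% of all tested probe sets were higher and 17.8% lower. BUF/N against the mean of the other 4 inbred strains gave 1 higher and 5 lower, against a background of 8.43% and 9.61%. ACI gave 1 higher and 3 lower, against 4.23% and 4.35%, and WF gave 1 higher and 1 lower, against 3.37% and 2.8%. F344 gave 0 higher and 1 lower, against 4.41% and 7.92%. Cop against the other 4 strains gave 0 in either direction by limma, where 5.54% of all probe sets were higher and 6.21% lower. There 9 of the 55 members had an unadjusted p under 0.05, against 1290 of the 5039 tested probe sets. Cop against F344 also gave 0, with a background of 1.69% and 1.77%. Of the members 1, Ube2a, had an unadjusted p under 0.05 there, against 709 of the 5039. The comparison of Cop and F1 with the strains F344, BUF/N and WF, whose sides come from background knowledge of susceptibility, gave 3 higher and 3 lower, against 7.5% and 8.99%. Centring each array on its median moved the median change of all tested probe sets by 0.14 in F344, -0.17 in ACI and 0.11 in the last comparison, and the members' split became 4 higher and 0 lower in F344, 1 and 8 in ACI, 6 and 8 in F1, and 4 and 1 in the last comparison. Centring left 1 and 5 in BUF/N. The share of all tested probe sets called under centring is not given, so these splits are no result about the members. Among all tested probe sets that passed, the share called higher moved under centring as well. It went from 35.7% to 68.9% in F344, from 49.3% to 16% in ACI and from 49.3% to 60.9% in F1. In BUF/N it went from 46.8% to 35.3%, and in the last comparison from 45.5% to 74.9%.

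**Figure D1:**
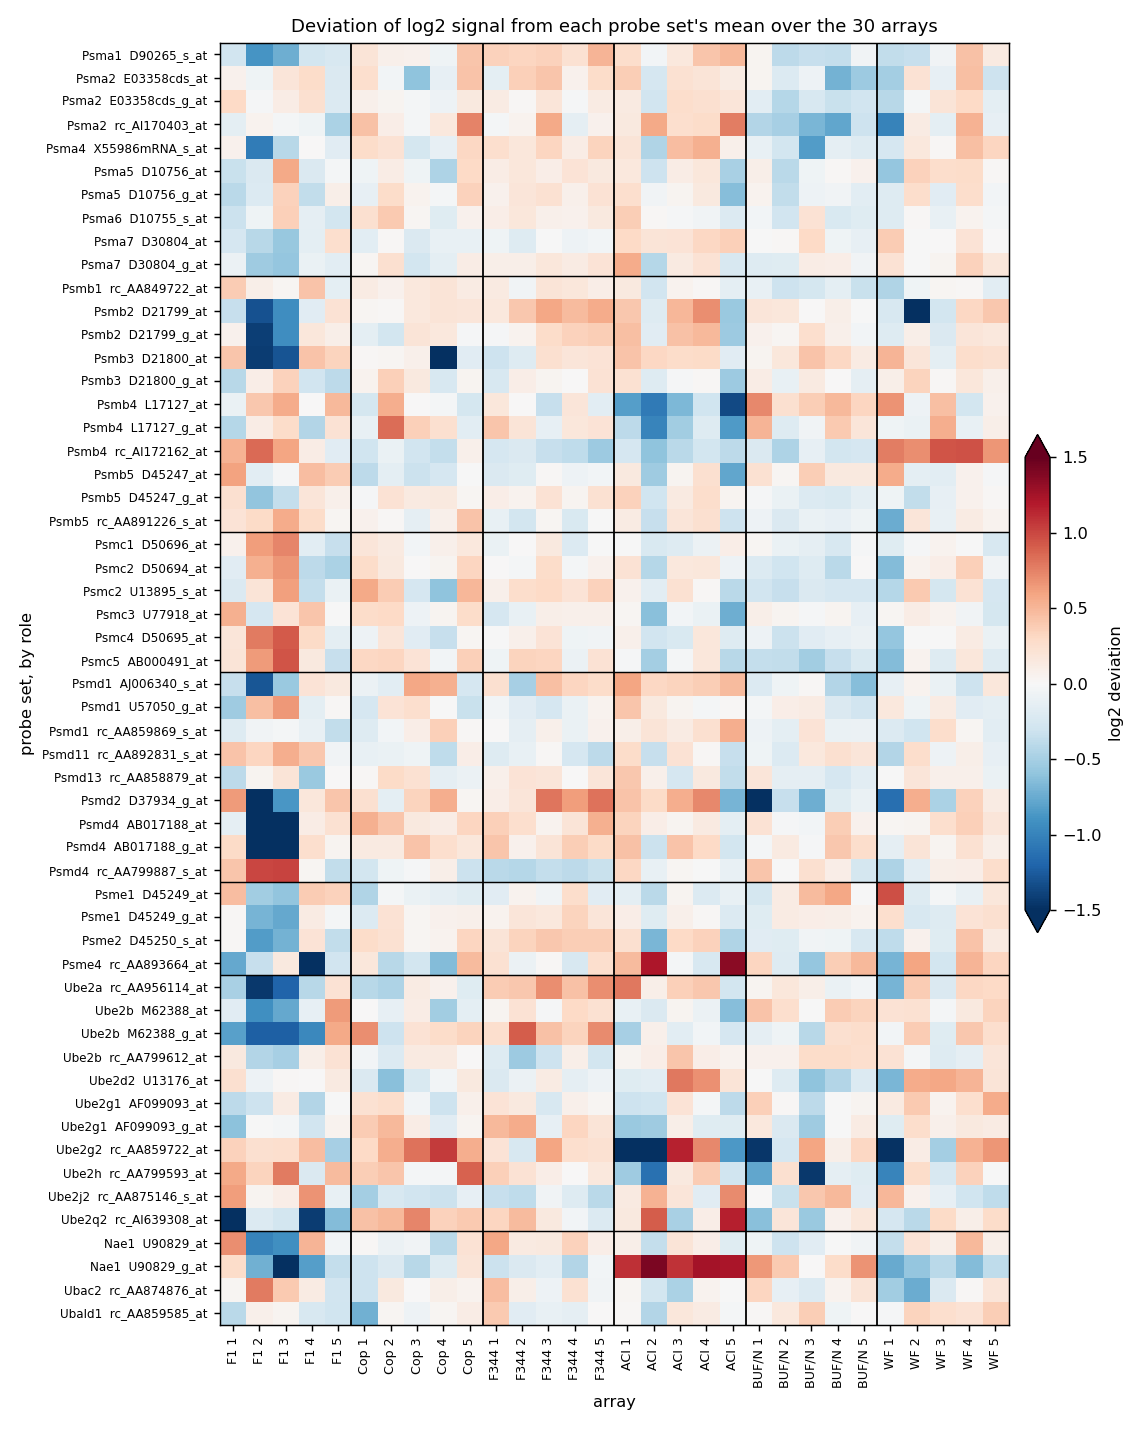
Deviation of the log2 signal (colour, from blue for lower to red for higher) of each of the 55 tested probe sets (rows, by role) from its own mean over the 30 arrays (columns, by group). The Nae1 probe set U90829_g_at is high in the 5 ACI arrays, and Psmb4 rc_AI172162_at is high in the 5 WF arrays. F1 2 and F1 3 hold both deep lows and several highs.

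Among the beta subunits, Psmb4, a structural subunit of the ring without an active site of its own, had the clearest strain differences, and its 3 probe sets gave different ones. On rc_AI172162_at the WF arrays had signals of 1827.0, 1744.4, 2071.9, 2075.2 and 1703.9, against a lowest of 709.0, a median of 883.8 and a highest of 1135.5 on the 20 arrays of the other inbred strains. No WF array overlapped with any array of the other 4 strains. The change was 1.10 ± 0.11 (SE) on the log2 scale, a 2.15-fold difference, with an adjusted p of 4.27e-08 in limma, and it passed under all 43 alternatives.

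Psmb4 on rc_AI172162_at was also high in F1, with signals of 1544.3, 1942.8, 1615.4, 1161.3 and 957.1, against 875.5, 1003.0, 878.2, 841.1 and 1135.5 in Cop and 899.3, 927.9, 848.0, 826.8 and 736.0 in F344. Of the F1 arrays, 4 lay above all 10 parental arrays and F1 5 lay within them. The change against the mean of the parents was 0.65 ± 0.12 on the log2 scale (limma adjusted p = 2.00e-04), and 0.43 without ACI 2, ACI 5, F1 2 and F1 3, where it still passed. Neither parent was high at this probe set.

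On L17127_at, Psmb4 was instead low in ACI, with signals of 786.6, 667.9, 873.8, 1125.5 and 542.4, against a lowest of 1094.2, a median of 1506.7 and a highest of 2293.1 in the other 4 strains. Only ACI 4 reached into their range. The change was -0.98 ± 0.15 on the log2 scale (limma adjusted p = 6.03e-05), and -0.74 without the 4 arrays that stood apart, where it passed. L17127_g_at, which correlated with it within groups at r = 0.803 over the 30 arrays, was lower in ACI as well, with 759.9 ± 171.3 (SD, n = 5) in ACI and 1277 ± 267 (SD, n = 20) in the other strains (-0.75 ± 0.15, limma adjusted p = 0.00201). That call did not pass without the 4 arrays, where the change was -0.53.

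L17127_at was also higher in BUF/N, with signals of 2293.1, 1639.5, 1789.4, 1951.0 and 1735.7 for Psmb4, against a median of 1282.0 in the other strains (0.60 ± 0.15, limma adjusted p = 0.00638). WF 1 and WF 3 and Cop 2 reached into the BUF/N range. The ACI arrays, low on L17127_at, are on the other side of this BUF/N comparison. L17127_g_at did not pass there. On rc_AI172162_at, ACI was lower by a small step, 826.1 ± 76.8 (SD, n = 5) against a median of 915.5 on the other 20 arrays (-0.39 ± 0.11, limma adjusted p = 0.0284), and this call was lost without ACI 2 (-0.33), without ACI 5 (-0.38) and without the 4 arrays (-0.31). F344 was lower by 0.34 ± 0.11 (limma adjusted p = 0.0454), a call that was lost in 20 of 43 alternatives. The WF arrays are on the other side of both of these comparisons. L17127_at and L17127_g_at correlated with rc_AI172162_at within groups at only 0.138 and 0.201.

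**Figure D2:**
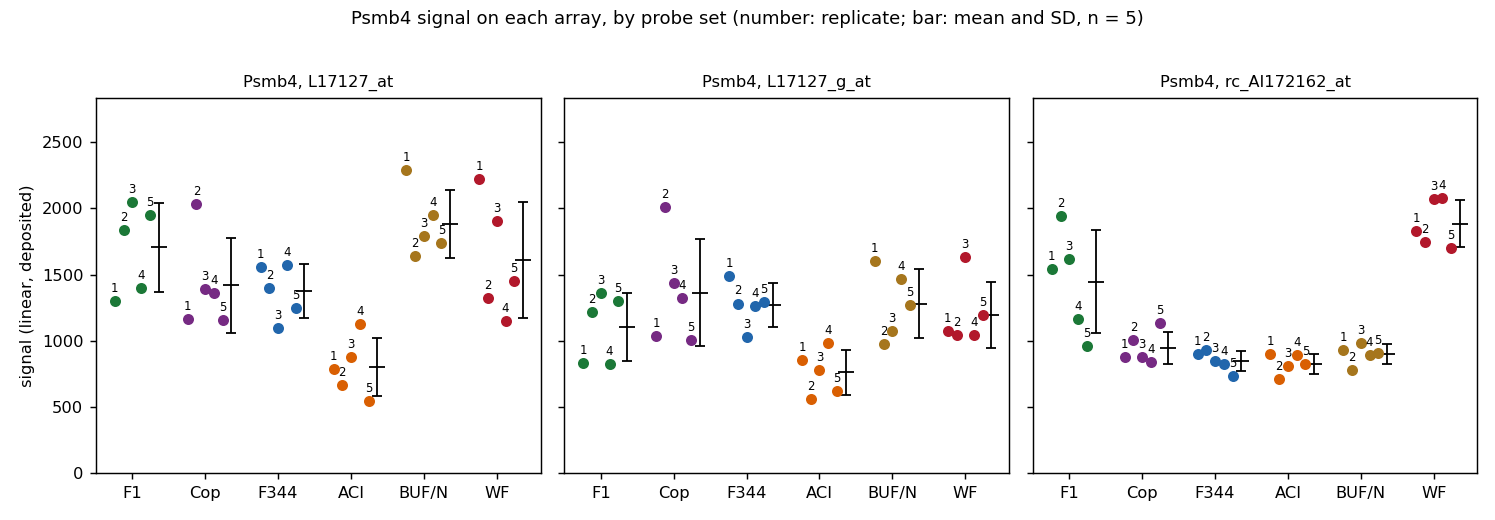
Linear signal of the 3 Psmb4 probe sets (panels) on each array (points, numbered by replicate) in the 6 groups, with mean and SD (bars, n = 5). The 2 probe sets named L17127 are lowest in ACI, while rc_AI172162_at is high in the 5 WF arrays and in most F1 arrays.

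The 100 bases before the start given in the RefSeq promoter table for Psmb4 are shown because its strain differences were the clearest, and those of Psmd4 because its probe sets disagreed in F1 (below). Both genes lie on chromosome 2 (RefSeq, build GRCr8, minus strand; Psmb4 window chr2:185134562-185134661, Psmd4 window chr2:185297202-185297301). No base of the Psmb4 window lies within the gene's annotated span, whereas 37 bases of the Psmd4 window do, since the span of Psmd4 reaches farther upstream than the start used. Neither window holds the antioxidant response element searched for, TGACNNNGC on either strand.
Psmb4: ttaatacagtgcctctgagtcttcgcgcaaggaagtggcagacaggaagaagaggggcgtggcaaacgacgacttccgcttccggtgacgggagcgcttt
Psmd4: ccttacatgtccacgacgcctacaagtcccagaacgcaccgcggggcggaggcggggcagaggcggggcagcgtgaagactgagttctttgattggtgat

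Of the other beta subunits, Psmb5 and Psmb2 passed in F1. Psmb5, which carries the chymotrypsin-like active site, had signals of 1795.7, 1062.8, 1168.7, 1636.8 and 1548.3 on D45247_at in F1, against 904.8 to 1202.8 in the 10 parental arrays. F1 1, F1 4 and F1 5 lay above the parents and F1 2 and F1 3 among them, and the change was 0.42 ± 0.15 (limma adjusted p = 0.0288) with all arrays and 0.65 without the 4. The other 2 Psmb5 probe sets did not pass there. Psmb2, a structural subunit, fell by 0.78 ± 0.25 on D21799_at and by 0.50 ± 0.20 on D21799_g_at. Its F1 signals on D21799_at were 331.5, 170.1, 220.5, 375.1 and 489.7, against 426.7 to 629.9 in the parents. Neither passed without the 4 arrays (-0.37 and 0.02). D21799_g_at lost its call on leaving out any of 24 of the 30 arrays. Some of these were ACI, BUF/N or WF arrays, without which the change stayed at -0.50, so that call lay near the threshold. Psmb5 on D45247_at lost its call without F1 1 (0.33), F1 4 (0.36) or F1 5 (0.39). Psmb3 passed in none of the 8 comparisons with all arrays. Without the 4, it passed as lower in Cop on D21800_at (-0.56) and in F1 on D21800_g_at (-0.42).

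The alpha subunits had the most calls in BUF/N, the group that also had the lowest summed adipocyte signal. By the mean log2 deviation of the same 14 adipocyte genes, F1 was lower (-0.37 in F1 and -0.21 in BUF/N). All 10 tested probe sets of the 6 alpha genes had a negative change in BUF/N against the other 4 inbred strains. Their median was -0.26, against 0.05 over all tested probe sets. Over the 55 members 5 were called lower, where 9.61% of all tested probe sets were. Of the 10 alpha probe sets 4 passed, all lower. These were Psma1, Psma4 and 2 of the 3 probe sets of Psma2, all of them ring subunits without proteolytic activity. On rc_AI170403_at, Psma2 had signals of 621.7, 594.5, 523.7, 492.0 and 680.5 in BUF/N, against a lowest of 421.0, a median of 925.0 and a highest of 1439.6 in the other strains. WF 1 was the only array of the other strains below the highest BUF/N signal. The change was -0.71 ± 0.16 (limma adjusted p = 0.00233) and passed under all 43 alternatives.

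Psma2 on E03358cds_g_at had 761.5 ± 51.5 in BUF/N (SD, n = 5) and 969.3 ± 115.8 in the other strains (SD, n = 20), with a change of -0.34 ± 0.10 (limma adjusted p = 0.0191). The third probe set, E03358cds_at, did not pass. Psma1 had 528.1, 391.9, 404.2, 402.7 and 494.3 in BUF/N, against a median of 596.4 and a range of 396.7 to 734.8 in the other strains (-0.40 ± 0.12, limma adjusted p = 0.0239). Psma4 had 466.5, 413.5, 281.2, 456.1 and 438.0 in BUF/N, against a median of 578.5 (-0.47 ± 0.16, limma adjusted p = 0.0345). BUF/N 3 was the lowest for Psma4. The groups overlapped for each of these genes. Leaving out a single BUF/N array ended some of these calls: that of Psma1 without BUF/N 2 (-0.36), 3 (-0.37) or 4 (-0.37), that of Psma2 E03358cds_g_at without BUF/N 2 (-0.31) or 4 (-0.33), and that of Psma4 without BUF/N 2 (-0.48) or 3 (-0.34). That of Psma4 was lost as well with no filter on low signals.

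The fifth member lower in BUF/N was Psmd2, a scaffold subunit of the cap, with 105.0, 268.0, 204.4, 298.4 and 316.0 in BUF/N and a median of 421.8 in the other strains (-0.82 ± 0.28, limma adjusted p = 0.0419). That call was lost on leaving out any of 13 of the 30 arrays, among them BUF/N 1 (-0.55), BUF/N 2 (-0.89) and BUF/N 3 (-0.79). Without ACI 2, ACI 5, F1 2 and F1 3, BUF/N against the other 4 strains gave 1 member higher and 12 lower, with backgrounds of 14.9% and 13.5%, and all 6 calls made with all arrays were among these 13. The 7 added ones, all lower, were Psmc2, Psmc5, Psmd1, Psmb1, Psmb4 on rc_AI172162_at, Psmb5 and the activator subunit Psme2. The 1 member higher in that fit was Psmb4 on L17127_at, so Psmb4 passed in opposite directions on its probe sets.

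Psma1 was also the alpha subunit with the clearest difference in F1. Its F1 signals were 421.1, 279.2, 308.6, 426.3 and 435.2, against 588.6, 543.9, 538.7, 492.4 and 683.8 in Cop and 655.0, 644.7, 652.7, 604.1 and 734.8 in F344. Every F1 array lay below every parental array. The change was -0.73 ± 0.14 (limma adjusted p = 1.85e-04), and -0.51 without the 4 arrays, where it passed. Psma4 fell by 0.47 ± 0.17 and Psma7 on D30804_g_at by 0.35 ± 0.13 in F1, but neither passed without the 4 arrays (-0.20 and -0.18). Psma7 on D30804_at differed among the 6 groups (limma adjusted p = 0.0152 in the F test), with the highest mean in ACI (834.9 ± 41.7, SD, n = 5) and the lowest in F1 (601.5 ± 135.9, SD, n = 5), and this was lost under centring on the median and without the 4 arrays.

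The ATPases of the cap had the same sign throughout when Cop and F1 were set against F344, BUF/N and WF. All 6 probe sets of the 5 Psmc genes had a positive change there, with a median of 0.20, against -0.03 over all tested probe sets. Of the 6, 1 passed as higher, where 7.5% of all tested probe sets did. The 6 were also all positive in F344, on the other side here, against the other inbred strains (median 0.11), and in Cop (median 0.19). The 1 that passed was Psmc5, whose signals were 410.2, 560.3, 690.6, 398.0 and 282.0 in F1 and 444.0, 449.1, 414.7, 350.1 and 461.7 in Cop, against a lowest of 228.2, a median of 313.6 and a highest of 452.2 on the 15 arrays of F344, BUF/N and WF. The groups overlapped. The change was 0.40 ± 0.12 (limma adjusted p = 0.0220), and 0.24, without passing, when the 4 arrays were left out. It was lost as well without F1 2 (0.36) or F1 3 (0.32). F344 itself averaged 400.5 ± 55.9 and BUF/N 279.9 ± 19.9 (SD, n = 5 each), and the F344 and Cop ranges overlapped. The other members higher there were Psmb1 (0.23 ± 0.08, limma adjusted p = 0.0398) and Psmb5 on rc_AA891226_s_at (0.29 ± 0.10, limma adjusted p = 0.0403), whose calls were lost in 13 and 15 of 43 alternatives.

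Psmc4 was the only ATPase that passed in F1 with all arrays, at 358.5, 541.2, 594.8, 383.6 and 284.6, against 248.8 to 363.9 in the parents (0.43 ± 0.14, limma adjusted p = 0.0205). F1 2 and F1 3 were the highest of the 30 arrays. Without the 4 arrays the change was 0.13 and did not pass, and Psmc2 on D50694_at passed instead, as lower (-0.45). The Psmc4 call was lost as well without F1 2 (0.33) or F1 3 (0.30). In 5 of the 6 ATPase probe sets, F1 2 and F1 3 both lay above the other 3 F1 arrays.

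Among the other cap subunits, the 3 probe sets of Psmd4, the ubiquitin receptor of the cap, passed in opposite directions in F1. AB017188_at had 240.7, 45.3, 47.1, 283.9 and 307.5 in F1, against 273.5 to 381.6 in the 10 parental arrays. AB017188_g_at had 784.2, 137.3, 110.4, 763.4 and 662.8 in F1, against 669.6 to 861.2 in the parents. On both, F1 2 and F1 3 were far below every other array of the series and the other F1 arrays were near the parents. The third probe set, rc_AA799887_s_at, whose suffix marks probes that may match more than 1 transcript, had 484.2, 727.7, 734.6, 372.5 and 281.1 in F1, against 270.6 to 387.4 in the parents. There the same arrays, F1 2 and F1 3, were the highest of the 30.

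**Figure D3:**
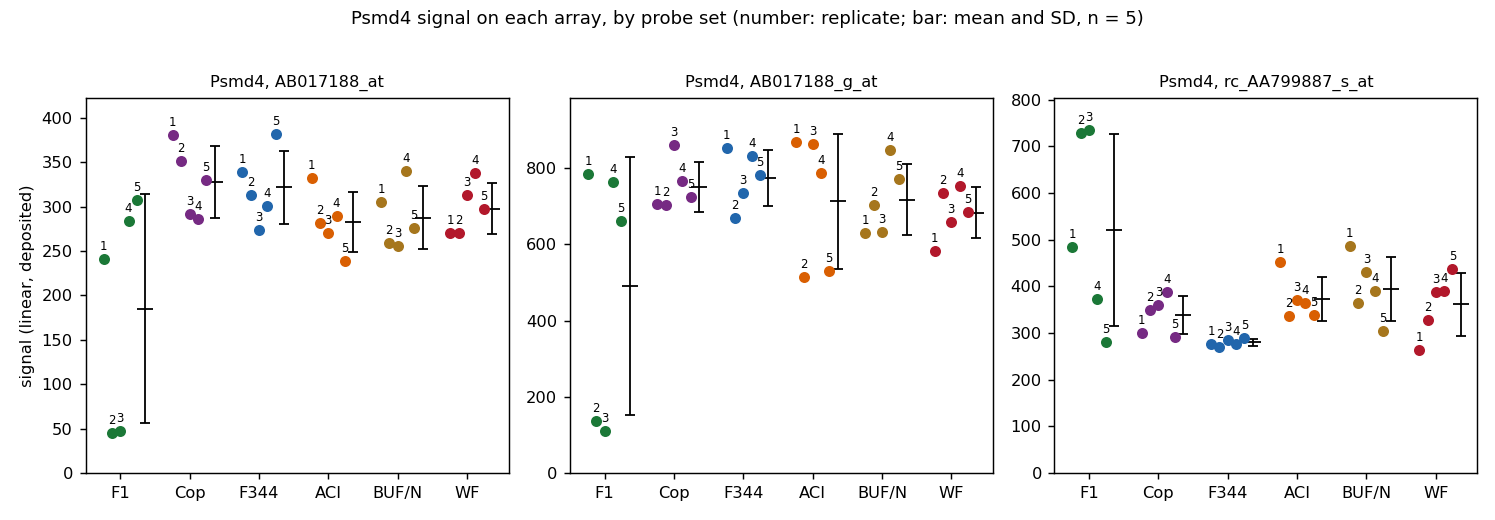
Linear signal of the 3 Psmd4 probe sets (panels, each with its own axis) on each array (points, numbered by replicate) in the 6 groups, with mean and SD (bars, n = 5). F1 2 and F1 3 are the lowest of the 30 arrays on both AB017188 probe sets and the highest on rc_AA799887_s_at.

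The changes were -1.26 ± 0.30 (limma adjusted p = 0.00220), -1.08 ± 0.31 (0.00769) and 0.67 ± 0.17 (0.00305). Without the 4 arrays they were -0.23, -0.05 and 0.27, and none passed. Within groups, over the 30 arrays, the first pair correlated at r = 0.927 and each of them with rc_AA799887_s_at at -0.677 and -0.598. For Psmd4 the direction in F1 thus depended on the probe set and on 2 of the 5 arrays. Psmd11, a cap subunit known to help hold the cap to the core, rose in F1 with 1453.9, 1352.5, 1582.2, 1433.6 and 1049.5, against 824.8 to 1161.9 in the parents. F1 5 alone lay within the parental range. Its change was 0.48 ± 0.13 (limma adjusted p = 0.00456), and 0.41 without the 4 arrays, where it passed. Psmd1 on AJ006340_s_at fell by 0.51 ± 0.19 and by 0.14 without the 4 arrays, where it did not pass. Its call was also lost on leaving out any of 9 of the 30 arrays, and its other 2 tested probe sets did not pass.

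The activators have known ties to antigen processing, since Psme1 and Psme2 form the interferon-inducible cap PA28. In F1, Psme2 had 504.1, 278.8, 303.6, 572.6 and 386.2, against 508.3 to 657.5 in the parents. F1 4 alone was well inside the parental range and F1 1 just under it. It fell by 0.60 ± 0.17 (limma adjusted p = 0.00646) with all arrays, and did not pass without the 4 (-0.30). Its F test in limma over the groups had an adjusted p of 0.0477, and that call was lost in 25 of 42 alternatives. Psme1 on D45249_g_at fell by 0.38 ± 0.13 in F1 with all arrays and had -0.07 without the 4, whereas D45249_at had 0.11 with all arrays and passed as higher without the 4 (0.49). On D45249_at the F1 signals were 2852.0, 1444.5, 1379.3, 2700.9 and 2646.5, against 1520.6 to 2487.4 in the parents, so that F1 2 and F1 3 lay below all parents and the other 3 above. Neither Psme1 probe set passed limma's F test (limma adjusted p = 0.427 for D45249_at and 0.141 for D45249_g_at). Psme4, a nuclear activator, passed in F1 only without the 4 arrays (-0.92).

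Of the E2 enzymes, the close relatives Ube2a and Ube2b, homologues of yeast Rad6 that act in DNA damage tolerance and histone ubiquitination, were low in F1. Ube2b on M62388_g_at had 135.5, 102.2, 101.5, 121.6 and 351.7 in F1, against 192.7 to 445.0 in the 10 parental arrays. Of the F1 arrays, 4 lay below all parents and F1 5 within them. It fell by 1.12 ± 0.21 (limma adjusted p = 1.99e-04), and by 0.79 without the 4 arrays, where it passed. The other probe sets of Ube2b did not pass in F1, with -0.28 on M62388_at and 0.02 on rc_AA799612_at. Ube2a had 240.5, 123.8, 147.0, 251.9 and 391.9 in F1, against 253.0, 245.0, 366.5, 351.7 and 296.2 in Cop and 438.6, 446.0, 544.6, 458.4 and 544.2 in F344. Every Cop array lay below every F344 array, and 3 F1 arrays lay below all parents. The change in F1 was -0.84 ± 0.21 (limma adjusted p = 0.00240), and -0.40 without passing when the 4 arrays were left out.

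Between the parents, Ube2a had the change farthest from 0 among the 55 members, -0.70 in Cop against F344. It did not pass with all arrays, and passed without the 4, none of which is a Cop or F344 array. With Cop and F1 set against F344, BUF/N and WF, Ube2a fell by 0.61 ± 0.15 (limma adjusted p = 0.00737), and by 0.39 without the 4 arrays, where it passed. Ube2b was lower there on M62388_at (-0.41 ± 0.12, limma adjusted p = 0.0254) and M62388_g_at (-0.47 ± 0.16, limma adjusted p = 0.0394), and both calls were lost without the 4 arrays (-0.21 and -0.30).

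Further E2 enzymes passed in F1. Ube2q2 had 19.1, 50, 47.9, 21.5 and 36.8 in F1, against 50.1 to 96.3 in the parents, with no overlap (-1.14 ± 0.25, limma adjusted p = 0.00104). The groups were barely apart, with F1 2 at 50 and the lowest parental array at 50.1, and F1 1 and F1 4 lay near the floor. Ube2q2 only just met the filter on low signals. It exceeded the overall median on 5 arrays, the fewest allowed, and none of them was an F1 array. Its signals were dim, so it was not tested without the 4 arrays, and ACI and BUF/N arrays reached down to 41.1 and 37.5. Ube2j2, an E2 enzyme of the endoplasmic reticulum membrane that acts in the degradation of misfolded proteins, rose in F1 with 1165.4, 772.3, 804.5, 1206.0 and 697.4, against 527.3 to 728.3 in the parents. F1 5 alone lay within the parental range. The change was 0.55 ± 0.16 (limma adjusted p = 0.00970) and 0.69 without the 4 arrays, where it passed. Ube2g1 on AF099093_g_at fell by 0.41 ± 0.15, and by 0.51 without the 4 arrays, where it passed. Leaving out any of 6 single arrays ended that call. With all arrays, no E2 enzyme passed in a comparison of a single inbred strain with the other 4. Without the 4 arrays, Ube2a passed as lower in Cop (-0.45) and higher in F344 (0.43), and Ube2b on rc_AA799612_at as lower in F344 (-0.34). Ube2g2, also known from degradation at the endoplasmic reticulum, passed no comparison and ran from 7.5 to 254.5 within ACI alone.

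Nae1, the regulatory subunit of the NEDD8 E1, which sets off the activation of cullin ligases, had a strain difference on U90829_g_at. Its ACI signals were 234.5, 292.1, 234.2, 262.5 and 257.5, against a lowest of 65.4, a median of 94.7 and a highest of 175.4 in the other 4 inbred strains. No array overlapped, and F1 lay at 37.0 to 132.8. The change in ACI was 1.36 ± 0.17 on the log2 scale, 2.56-fold (limma adjusted p = 1.48e-06), and 1.29 without the 4 arrays, where it passed. WF was lower on the same probe set, with 65.4, 73.7, 83.5, 69.9 and 84.5, against a median of 118.6 in the other strains (-0.85 ± 0.17, limma adjusted p = 0.00160). F344 4 and Cop 3 overlapped with it. The high ACI arrays are on the other side of this WF comparison, and the WF arrays are on the other side of the ACI comparison. Both calls held under all 43 alternatives. BUF/N had the next highest mean, at 110.8 to 175.4, and Cop 5 and F1 1 reached into that range.

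The other Nae1 probe set, U90829_at, showed no such pattern. Its ACI signals were 159.3, 117.0, 171.5, 160.9 and 131.6, within the 113.5 to 223.0 of the other inbred strains, and its F test did not pass (adjusted p = 0.563). The pair correlated within groups at r = 0.483. Ubac2 and Ubald1, named for ubiquitin-associated domains, passed no comparison with all arrays.

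**Figure D4:**
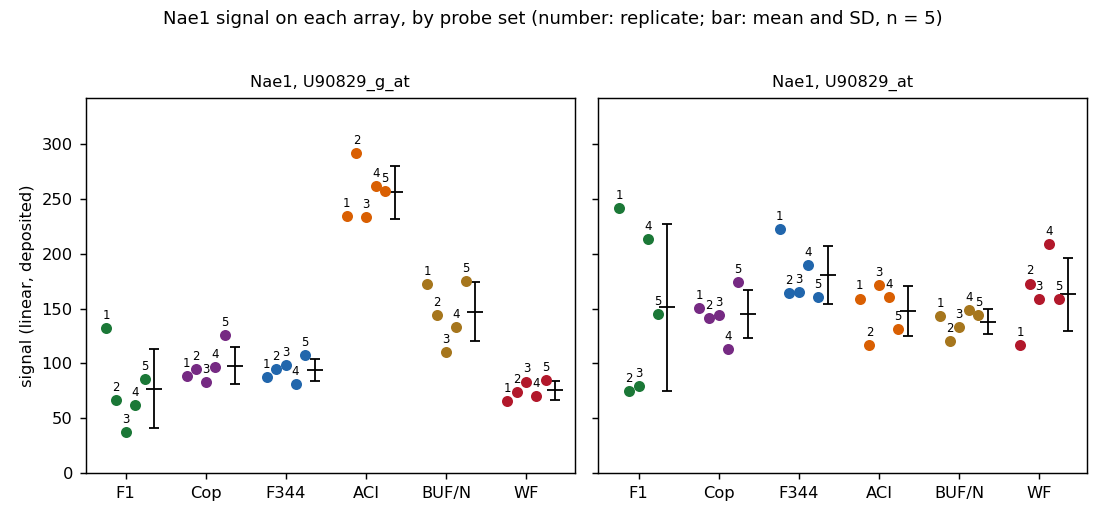
Linear signal of the 2 Nae1 probe sets (panels) on each array (points, numbered by replicate) in the 6 groups, with mean and SD (bars, n = 5). On U90829_g_at the 5 ACI arrays lie above all others, and on U90829_at ACI lies among the other strains.

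The F1 calls changed in part when F1 2 and F1 3 were among the arrays left out, over the members as over all tested probe sets. Of the 55 members, both arrays lay below the other 3 F1 arrays in 21 (38.2%) and above them in 17 (30.9%), against 28.7% and 32% of all tested probe sets. The 21 low ones held 5 of 11 beta, 4 of 10 alpha, 4 of 9 non-ATPase and 0 of 6 ATPase probe sets, 4 of 11 of E2 enzymes and 3 of 4 of activators. The 17 high ones held 5 of the 6 ATPase probe sets. Without ACI 2, ACI 5, F1 2 and F1 3, F1 against its parents gave 5 members higher and 9 lower of 54 tested. Of all tested probe sets 12.9% were higher and 11.8% lower there, against 17.4% and 17.8% with all arrays. That fit has only 3 F1 arrays, and the part of this smaller number in the changed calls was not tested. Of the 20 calls made with all arrays, 7 were made in both fits: Psma1, Ube2b on M62388_g_at and Ube2g1 lower, and Psmb4 on rc_AI172162_at, Psmb5 on D45247_at, Psmd11 and Ube2j2 higher. Another 12 were lost, Ube2q2 was not tested, and 7 were added. The added ones were Psmc2, Psmd13, Psma5, Psma6, Psmb3 and Psme4 lower and Psme1 on D45249_at higher. The median change of the members was -0.18 with all arrays and -0.12 without the 4, against 0.02 over all tested probe sets in both fits.

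**Figure D5:**
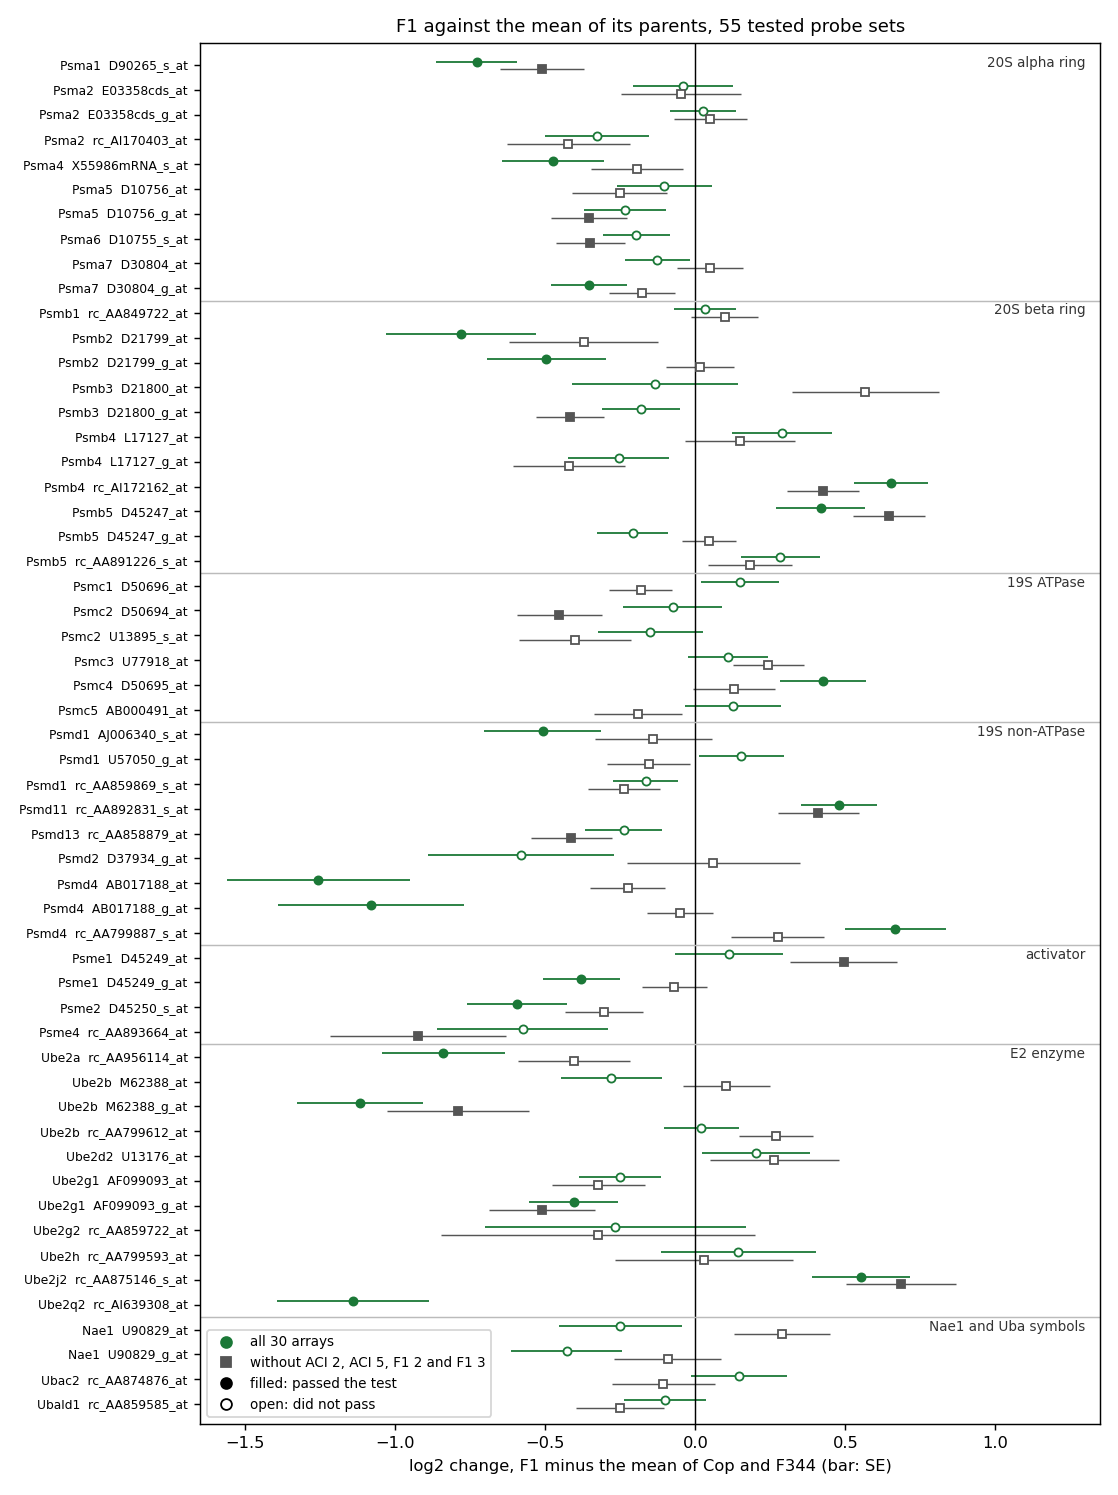
Log2 change of F1 against the mean of Cop and F344 with its SE (horizontal axis) for each of the 55 tested probe sets (rows, by role), with all 30 arrays (green circles) and without ACI 2, ACI 5, F1 2 and F1 3 (grey squares). Filled symbols passed the test, and Psmd4, Psmb2 and Psmc4 passed only with all arrays while Psma1, Psmd11 and Ube2j2 passed in both.

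In ACI the 4 arrays acted in another way. ACI 2 and ACI 5 both lay below the other ACI arrays in 28 of the 55 members (50.9%) and above them in 4 (7.27%), against 22.4% and 31.4% of all tested probe sets. The 4 high ones were Psma2 on rc_AI170403_at, Ube2j2, Ube2q2 and Psme4. The median deviation of the 36 core and cap probe sets from their means over all arrays was -0.24 in ACI 2 and -0.22 in ACI 5, and 0.13 to 0.24 in ACI 1, ACI 3 and ACI 4. The actin control, read at its 3' end over its 5' end, gave a ratio of 1.78 in ACI 2 and 1.80 in ACI 5, 1.19 to 1.34 in the other 3 and 1.01 to 1.98 on the arrays of the other groups, and its part in these values was not tested. By the same measure every BUF/N array was below 0 (-0.19 to -0.02) and every F344 array above it (0.03 to 0.18). F1, Cop, ACI and WF lay on both sides.

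Members moved together only weakly within groups. Over the 30 arrays, the deviations from group means of probe sets of different core and cap genes correlated with a median r of 0.158 over 610 pairs, against 0.0033 over all pairs of tested probe sets, and 62.6% of the 610 were positive. Without the 4 arrays the medians were 0.124 and 0.0094. Pairs of E2 genes had a median of 0.0929. These pairs share arrays and scaling, and the values are a description. Probe sets of the same member gene had a median r of 0.496 over 26 pairs, close to the 0.456 of all genes with several probe sets. With all arrays, both probe sets passed in the same direction in some comparison in 7 of these pairs. In 2 (both of Psmd4) they passed in opposite directions, and 4 pairs had an r below 0.

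The promoters were searched for the antioxidant response element TGACNNNGC on both strands, in the 250 bases before the start given in the promoter table (RefSeq, build GRCr8). Of the 40 member genes 39 had a promoter, and 7 of these held a match (17.9%), against 10.1% of 33469 promoters. Of 21 core and cap genes 3 held one, Psmb2, Psmb5 and Psmd1, and their matches are shown in capitals as the candidates among the subunits. The first base of the match lay 68, 60 and 165 bases before the start. The windows are chr5:144254970-144255018 on the plus strand for Psmb2, chr15:32047411-32047459 on the minus strand for Psmb5 and chr9:94157786-94157834 on the plus strand for Psmd1. A match is a description of letters and no site.
Psmb2: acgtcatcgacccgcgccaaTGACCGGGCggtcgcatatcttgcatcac
Psmb5: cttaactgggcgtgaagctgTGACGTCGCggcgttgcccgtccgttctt
Psmd1: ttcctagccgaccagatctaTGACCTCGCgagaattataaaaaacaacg

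The wider pathway was followed in a list of other ubiquitin genes, of which 37 probe sets (27 genes) were tested. In the F test 19 of them passed (51.4%), a share equal to the background within 1 percentage point. In F1 10 were higher and 5 lower of 37, where 17.4% of all tested probe sets were higher and 17.8% lower. Without the 4 arrays, Nsfl1c on AB002086_g_at, Cdc20, Atxn3 and both Znrf1 probe sets lost their calls as higher. Huwe1 on U08214_s_at, Pomp and Bag6 lost theirs as lower. Cand1 on E12829cds_at and Vhl on S80345_s_at then passed as higher, with backgrounds of 12.9% higher and 11.8% lower. Cops7a on rc_AA875470_at, a subunit of the COP9 signalosome that removes NEDD8 from cullins, had 1152 ± 321 in F1 (SD, n = 5), against 600.0 ± 66.8 in the parents (SD, n = 10), with no overlap (0.91 ± 0.16, limma adjusted p = 1.00e-04), and 0.64 without the 4 arrays, where it passed. Its other probe set, rc_AA875470_g_at, overlapped and did not pass in F1, at 358.3 ± 90.8 in F1 (SD, n = 5) and 294.4 ± 22.9 in the parents (SD, n = 10), with a change of 0.25. Nfe2l2, a transcription factor that acts on antioxidant response elements, fell in F1 with no overlap on rc_AI177161_at, at 128.3 ± 23.0 in F1 (SD, n = 5) and 245.1 ± 43.6 in the parents (SD, n = 10), by 0.93 ± 0.20 (limma adjusted p = 7.42e-04), and by 0.74 without the 4 arrays, where it passed. On rc_AI177161_g_at, Nfe2l2 overlapped and did not pass in F1 (-0.58). Cul2, a cullin scaffold that NEDD8 activates, was higher in Cop than in all other inbred arrays, at 231.2 ± 12.1 (SD, n = 5) and 147.7 ± 27.3 (SD, n = 20), with a change of 0.67 ± 0.12 (limma adjusted p = 3.34e-04), and 0.61 without the 4 arrays, where it passed.

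The E3 ligases Ube3a and, on rc_AA893667_at, Znrf1 passed in the same directions in 3 comparisons. Ube3a was lower in F344 (-0.72 ± 0.15) and higher in BUF/N (0.49 ± 0.15) and F1 (0.78 ± 0.17), and Znrf1 on rc_AA893667_at was lower in F344 (-0.73 ± 0.15) and higher in BUF/N (0.66 ± 0.15) and F1 (0.52 ± 0.17), all past the limma test. Without the 4 arrays, these calls were made again except that of Znrf1 on rc_AA893667_at in F1 (0.17). On rc_AA893667_g_at, Znrf1 passed as higher in BUF/N and F1 with all arrays and did not pass in F344. F344 averaged 57.0 ± 32.0 there, Cop 54.4 ± 16.7 and ACI 46.0 ± 20.8 (SD, n = 5 each). Without the 4 arrays this probe set passed in BUF/N (0.63) and not in F1 (0.59). F344 is also a parent in the F1 comparison. It is on the other side of the BUF/N comparison, as BUF/N is of the F344 comparison. The immunoproteasome subunit Psmb8 was higher in BUF/N (981.5 ± 221.6) and WF (923.9 ± 86.7) and lower in ACI (473.6 ± 121.5), with F1 at 661.9 ± 188.3, Cop at 546.4 ± 89.9 and F344 at 521.4 ± 57.8 (SD, n = 5 each). Its changes against the other strains were 0.71 ± 0.14, 0.63 ± 0.14 and -0.61 ± 0.14, all past the limma test. Psmb5, the constitutive counterpart of Psmb8, passed in none of these 3 comparisons with all arrays. Without the 4 arrays, Psmb8 kept its calls in BUF/N (0.67) and WF (0.59) and not in ACI (-0.44), and Psmb5 on D45247_g_at passed as lower in BUF/N (-0.24). Psmb9, another immunoproteasome subunit, passed in neither BUF/N nor WF on either probe set, with or without the 4 arrays. On D10757_at it averaged 349.6 in BUF/N, 321.6 in WF and 207.9 in ACI. There it passed as lower in ACI with all arrays and not without the 4 (-0.23). On D10757_g_at it passed as lower in F1 in both fits.

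The 2 pools gave 1 ratio each without a replicate. Over the 55 members the median log2 ratio of the Cop pool over the F344 pool was -0.07, against -0.01 over all tested probe sets. No member differed 2-fold between the pools, and the ratios ran from -0.42 for Ube2d2 to 0.62 for Psmd1 on AJ006340_s_at, which had a change of -0.03 between the Cop and F344 samples.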

How the data were processed

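Signal intensities per probe set were deposited by the authors as computed in Affymetrix Microarray Suite 5.0, per the labels' protocols, each array with a trimmed mean near a common target. They were used as given, on the linear scale; arrays have no read depth, and their number limits the precision. Genes were named from the platform annotation given with the series: 7018 of 8799 probe sets have 1 gene symbol, 308 have several and 1473 have none, and 59 controls were left out. Signals were floored at 18.3 and log2 transformed, and dim probe sets were filtered as described. Group means of the 30 arrays were fitted in limma 3.58.1 (R 4.3.3) with a variance trend, in 1 fit with an F test and 8 contrasts. The fit was tested on simulated data. Members and gene lists were chosen with earlier results of these data known. Named members were the 12 with the smallest F test p, up to 4 called in each direction of each comparison, and Psmb4, Nae1, Uchl1, Psme1 and Psme2 whatever their result, with up to 6 other pathway genes; others named were chosen after their values were seen. Alternatives were other floors and filters, an offset, quantile normalisation, median centring, a replicate block, weights per array, the fit without a variance trend or with the pools, only the arrays compared, and arrays left out. Promoters are from RefSeq.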

Additional observations from a re-analysis of the deposited data

Results flagged for a closer look

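Among 24 named probe sets in 6 groups of 5, Dixon's test was applied 144 times, and in 8 of these groups 1 array lay far from the other 4. Chance alone gives about 1 in 20 groups. Psmb4 on L17127_at had 2033.3 in Cop 2, against 1156.4 to 1390.7 in the other Cop arrays, and Psmb4 on L17127_g_at had 1629 in WF 3, against 1040.9 to 1194.7. Ube2b on M62388_g_at had 351.7 in F1 5, against 101.5 to 135.5 in the other F1 arrays. Psma2 on rc_AI170403_at had 1250.6 in F344 3, against 769.9 to 881.9, and on E03358cds_g_at 759 in ACI 2, against 1023.3 to 1117.4. Psma4 had 281.2 in BUF/N 3, against 413.5 to 466.5 in the other BUF/N arrays. Psme1 on D45249_at had 4069.5 in WF 1, against 1809.8 to 2341.5, and on D45249_g_at 1671.3 in BUF/N 1, against 1961.1 to 2055.3.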

How the results depend on the processing

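No result changed direction past the test under any alternative run. Of 42 named results, 39 passed, 22 of them under every alternative run and 17 losing the call under at least 1, and the 3 that did not pass each passed under 1. With array weights the members called were 39 in the F test, 1 in Cop, 9 in F344, 20 in BUF/N, 4 in WF, 1 in Cop against F344 and 11 in Cop and F1 against the rest. Without ACI 2, ACI 5, F1 2 and F1 3 they were 4 in Cop, 6 in F344, 13 in BUF/N and 1 in Cop against F344. In that fit 8.9% of all tested probe sets were higher and 11% lower in Cop, and 6.73% and 10.7% in F344. The shares were 14.9% and 13.5% in BUF/N and 2.71% and 3.1% in Cop against F344. No such share is given for the other alternatives in this paragraph, so their counts are no result about the members. With only the arrays compared, the members called were 2 in Cop, 6 in F344, 11 in BUF/N and 1 in Cop against F344. F344 also had 2 with the floor at the 40th percentile, 2 with the offset, 4 under centring, 2 with the pools, where Cop had 1, and 0 with no variance trend. ACI had 7 under quantile normalisation and 9 under centring. Leaving out each array in turn gave 0 to 3 in F344, 3 to 7 in ACI (7 without WF 1), 2 to 9 in BUF/N (2 without BUF/N 2, 9 without WF 1), 12 to 21 in F1 (12 without F1 2) and 1 to 12 in Cop and F1 against the rest (1 without F1 2, 12 without F1 5). Replicate numbers did not pair the samples: over 75 same-numbered pairs r ran from -0.452 to 0.398. With the replicate block, 20 members were called in the F test, 20 in F1, 6 in BUF/N and 0 in F344. Dim signals limit Ube2q2 and the 12 untested members, and only 5 arrays stand in each group.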
